A study of Mus musculus with 10 samples.

Results

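The genes described here encode the proteins of the mitochondrial ribosome. They were chosen from the deposited expression table by symbol, as all names that begin with Mrpl or Mrps followed by a number and whose FPKM averaged 1 or more across the RNA-seq libraries. FPKM divides the fragments of a transcript by its length and by the size of the library. The rule gave 76 genes of the 10993 that passed the same mean, out of 11228 in the table. Of these, 47 carry a large subunit symbol (Mrpl) and 29 a small subunit symbol (Mrps). The mean of 1 FPKM removed 0 matching symbols, and the member nearest to it was Mrpl35, with a mean of 1.45 FPKM. Polyadenylated RNA came from mouse myotubes differentiated in vitro for 2 days. In the GAP-2 group (2 libraries) and the GAP-2/3 group (2 libraries) the long non-coding RNA Charme was depleted with gapmers, which are antisense oligonucleotides that direct RNase H to their target RNA. The GAP-scr group (2 libraries) received a control gapmer. The labels do not say which cells the myotubes were grown from, nor whether the GAP-2/3 set also holds the GAP-2 gapmer. Both arms are compared with the same pair of GAP-scr libraries, so the results of the arms are not independent of each other. Charme itself is not analysed here. A list of Charme-bound regions from chromatin of the same kind of myotubes, pulled down with even and odd probe sets, was also used.

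The mitochondrial ribosome translates the few messenger RNAs that the mitochondrial genome encodes, all for subunits of the respiratory chain and ATP synthase. Its ribosomal RNAs come from the mitochondrial genome, while all of its proteins are encoded in the nucleus, made on cytosolic ribosomes and imported. The large subunit holds the peptidyl transferase centre and the exit tunnel, and the small subunit binds the messenger RNA and holds the decoding centre. Part of the proteins descend from bacterial ribosomal proteins and the others were added in the mitochondrial lineage. Muscle depends heavily on oxidative phosphorylation, and mitochondria increase as myoblasts become myotubes. A symbol does not always give the position of a protein: those of Mrps30 and Mrps18a lie in the large subunit, and that of Mrps36 is now regarded as a subunit of the 2-oxoglutarate dehydrogenase complex.

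The libraries differed in ways that touch what follows. Rn45s, the ribosomal RNA precursor, stood at 4090 and 174 FPKM in GAP-2 libraries A and B, at 120 and 93.2 FPKM in GAP-2/3 libraries, and at 3387 and 176 FPKM in GAP-scr libraries A and B. Of the 11 myotube markers tested, 8 fell and 0 rose in the mean of both arms, beside 9.57% and 24.5% of all genes. Their summed level was 7376 and 7643 FPKM in GAP-2 libraries, 8097 and 8479 FPKM in GAP-2/3 libraries, and 12080 and 13090 FPKM in GAP-scr libraries. Markers of undifferentiated and cycling cells summed to 84.2 and 95.7 FPKM in GAP-2, 129 and 111 FPKM in GAP-2/3, and 67.3 and 81.5 FPKM in GAP-scr libraries. In the mean of both arms 2 of these 7 genes rose (Myf5 and Cdk1), beside 24.5% of all genes. In GAP-2 1 of 7 rose (Myf5, beside 10.4% of all genes) and the changes of 4 were below 0. In GAP-2/3 5 of 7 rose, beside 28.0% of all genes. Fibroblast markers summed to 1776 to 2099 FPKM in GAP-2, 1304 to 1534 FPKM in GAP-2/3, and 1965 to 1995 FPKM in GAP-scr. Of 8 listed 6 were tested, and most of each sum is collagen. The markers went opposite ways in the mean of both arms, with 2 of 6 higher and 1 lower. Dcn rose by 1.09 and Pdgfra by 0.64 on the log2 scale, and Col1a1 changed by -0.54. Of 7 macrophage markers 2 were tested, Cd68 and Cd14, both at or below 4.85 FPKM in every library. Both rose in the mean of both arms. Cd68 rose in GAP-2 (1.28 on the log2 scale) and was not called in GAP-2/3 (0.23), while Cd14 rose by 0.48 in each arm. None of 6 endothelial markers and 2 of 6 adipocyte markers (0 called, both at or below 2.01 FPKM) were in the tested set. The part of these markers in the results on ribosomal proteins was not tested, and in bulk RNA a change in the number of cells of a type and a change in RNA per cell cannot be told apart.

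FPKM is per transcript length, so levels can be set beside each other between genes, though only roughly. Reads of an overlapping gene could add to a level. Of the members named in this paragraph, Mrps6 overlaps Slc5a3, Mrps25 overlaps Nr2c2 and Mrpl19 overlaps Gcfc2, all genes of the expression table. The 76 members spanned a wide range, and the large subunit held both ends of it. Mrpl33, a homologue of bacterial L33, had the highest mean level (271.8 FPKM), followed by Mrpl52, a protein without a bacterial counterpart (254 FPKM), and Mrpl13 (132 FPKM). The lowest large subunit levels were those of Mrpl35 (1.45 FPKM), Mrpl17 (7.82 FPKM) and Mrpl19 (8.15 FPKM). Small subunit genes lay closer together. Their highest mean levels were 95.3 FPKM for Mrps6, 91.2 FPKM for Mrps16 and 79.9 FPKM for Mrps21, and their lowest were 8.93 FPKM for Mrps25, 10.4 FPKM for Mrps27 and 13.7 FPKM for Mrps11. The median member stood at 36.4 and 37.1 FPKM in GAP-2 libraries, at 39.5 and 38.4 FPKM in GAP-2/3 libraries, and at 34.7 and 34.4 FPKM in GAP-scr libraries, so both gapmer groups lay above the controls without overlap. The median of all genes tested did the same, at 13.2 and 13.1 FPKM in GAP-2, 13.3 and 13.8 FPKM in GAP-2/3, and 12.7 and 12.3 FPKM in GAP-scr libraries. Together the members held 0.575 to 0.653% of the FPKM sum of the table, against 3.94 to 4.18% for 80 nuclear genes of oxidative phosphorylation and 19.1 to 20.8% for 79 cytosolic ribosomal protein genes.

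**Figure D1:**
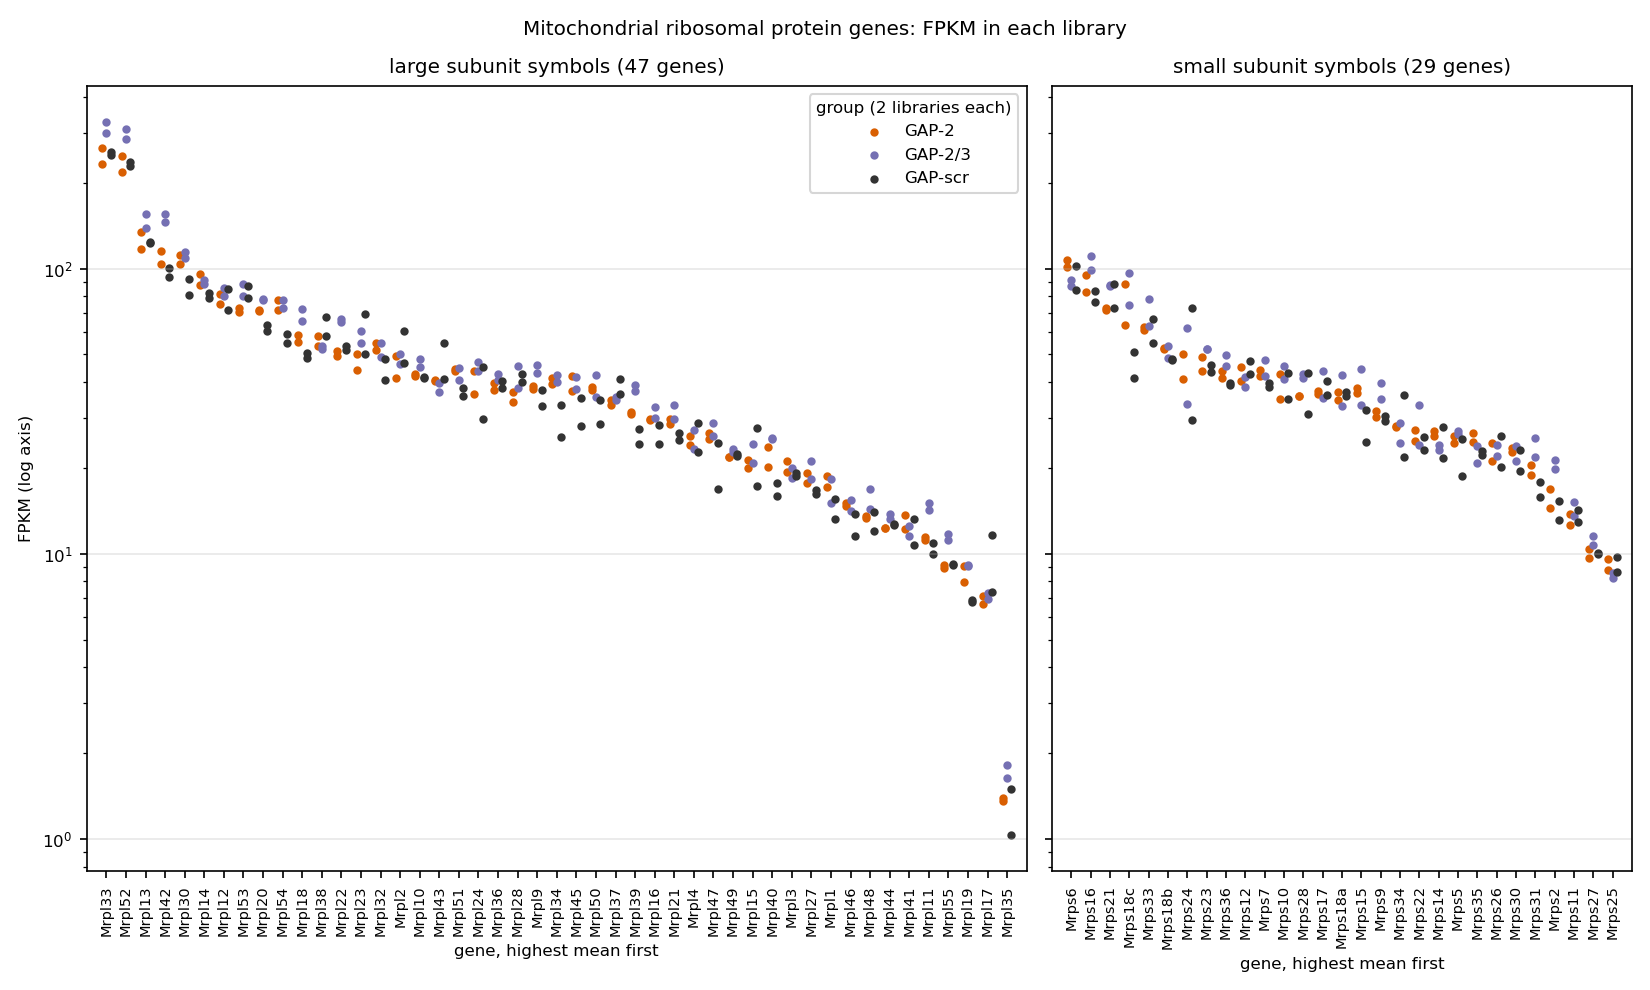
FPKM (log axis) of each of the 76 members in every library, with 47 large subunit symbols on the left and 29 small subunit symbols on the right, genes ordered by mean. Each point is 1 library. Mrpl33 and Mrpl52 stand above the others, with means of 271.8 and 254 FPKM, and Mrpl35 stands alone at 1.45 FPKM.

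With both arms averaged and set against GAP-scr, 16 of the 76 members rose and 0 fell. These 16 are 21.05% of the members, beside 24.5% of all genes tested that were called higher, so the share of members that rose was near the background. Over all genes 9.57% were called lower. Calls come from limma with an intensity trend on log2(FPKM + 1), fitted over all genes with Benjamini-Hochberg adjustment and a threshold of 0.05, and all log2 changes below are on that scale. At an unadjusted p under 0.05, 23 members were higher and 2 lower, Mrpl43 and Mrpl17. In either direction these are 25 of 76 members, beside 5002 of all 10993 genes tested. The median log2 change was 0.14 for the members and 0.10 for all genes tested. The count also depends on the scaling, since the median of all genes lay above 0. With the libraries scaled to one median, 6 members rose and 1 fell (Mrpl38), and over all genes 1614 were higher and 1554 lower, in place of 2698 higher and 1052 lower. The members' median log2 change was 0.05 on that scaling. With quantile normalization 7 members rose and 1 fell, beside 14.3% and 15.4% of all genes. Single libraries also moved the count, which was 9 without GAP-2 A, 6 without GAP-2 B, 6 without GAP-2/3 A, 10 without GAP-2/3 B, 19 without GAP-scr A and 12 without GAP-scr B. Over all genes the share called higher ran between 14.0% (without GAP-2/3 A) and 25.9% (without GAP-scr A) in those fits. Without GAP-2 A and GAP-scr A, the libraries highest in Rn45s, 12 members rose and 4 fell, beside 21.7% of all genes higher and 7.99% lower.

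The highest log2 change belonged to Mrps18c, one of 3 mammalian paralogues of bacterial S18 and the one that takes the bacterial position in the small subunit. It had 63.2 and 88.0 FPKM in GAP-2 libraries, 96.9 and 74.6 FPKM in GAP-2/3 libraries, and 41.2 and 51.2 FPKM in GAP-scr libraries. All 4 gapmer libraries were above both controls, although the replicates of each arm were far apart. The change was 0.78 ± 0.15 (log2, SE), a 1.72-fold difference (adjusted p = 0.00291, limma). Its paralogues did not pass the threshold: Mrps18b changed by 0.11 ± 0.09 (adjusted p = 0.360) and Mrps18a by 0.01 ± 0.11 (adjusted p = 0.967). Mrps18a, whose protein lies in the large subunit, had 36.9 and 34.5 FPKM in GAP-2, 33.0 and 42.5 FPKM in GAP-2/3, and 36.9 and 35.9 FPKM in GAP-scr libraries, which overlap.

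Of the 29 small subunit symbols, 3 others rose in the mean of both arms. Mrps15, whose bacterial homologue binds early to the ribosomal RNA, had 36.6 and 38.3 FPKM in GAP-2, 44.3 and 33.2 FPKM in GAP-2/3, and 24.6 and 32.1 FPKM in GAP-scr libraries. The lowest gapmer library lay just above the higher control, and the log2 change was 0.42 ± 0.13 (adjusted p = 0.0310, limma). Mrps31, a protein with no bacterial homologue, had 18.8 and 20.6 FPKM in GAP-2, 25.5 and 21.8 FPKM in GAP-2/3, and 17.9 and 15.8 FPKM in GAP-scr libraries. Its groups did not overlap, and it changed by 0.34 ± 0.11 (adjusted p = 0.0291). Mrps2, a homologue of bacterial S2, had 14.5 and 16.8 FPKM in GAP-2, 19.8 and 21.4 FPKM in GAP-2/3, and 13.2 and 15.3 FPKM in GAP-scr libraries. GAP-2 overlapped the controls for this gene and GAP-2/3 did not. It changed by 0.32 ± 0.11 (adjusted p = 0.0402). Mrps30, whose protein is part of the large subunit, changed by 0.10 ± 0.10 (adjusted p = 0.493), and Mrps36 by 0.18 ± 0.09 (adjusted p = 0.139).

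Of the 47 large subunit symbols, 12 rose. Mrpl40, which has no bacterial homologue, had 20.2 and 23.8 FPKM in GAP-2, 25.5 and 25.3 FPKM in GAP-2/3, and 17.7 and 15.99 FPKM in GAP-scr libraries. Every gapmer library was above both controls, and the log2 change was 0.47 ± 0.10 (adjusted p = 0.00613, limma). Mrpl34, the homologue of bacterial L34, had 39.4 and 41.3 FPKM in GAP-2, 39.9 and 42.5 FPKM in GAP-2/3, and 33.4 and 25.7 FPKM in GAP-scr libraries. The 4 gapmer libraries lay close together and the controls apart from each other. It changed by 0.46 ± 0.11 (adjusted p = 0.00948). Mrpl39, related in sequence to threonyl-tRNA synthetase, had 31.4 and 30.9 FPKM in GAP-2, 39.2 and 37.1 FPKM in GAP-2/3, and 24.2 and 27.5 FPKM in GAP-scr libraries. GAP-2/3 was highest, GAP-2 between it and the controls, with no overlap among the groups. Mrpl39 changed by 0.40 ± 0.10 (adjusted p = 0.00867).

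Mrpl42, another protein specific to mitochondria, had 104 and 115 FPKM in GAP-2, 156 and 146 FPKM in GAP-2/3, and 93.5 and 101 FPKM in GAP-scr libraries. GAP-2 stood only slightly above the controls and GAP-2/3 well above both. In the mean of both arms it changed by 0.40 ± 0.09 (adjusted p = 0.00783, limma). Mrpl54 had 71.5 and 77.5 FPKM in GAP-2, 73.0 and 77.8 FPKM in GAP-2/3, and 59.2 and 54.9 FPKM in GAP-scr libraries. For this gene the 2 arms lay at one level, above the controls, and the change was 0.39 ± 0.09 (adjusted p = 0.00882). The remaining 7 large subunit genes changed by 0.26 to 0.37. They are Mrpl47, a homologue of bacterial L29 near the exit tunnel, Mrpl30, Mrpl18, Mrpl19, Mrpl45, which faces the inner membrane at the tunnel exit, Mrpl11 of the stalk base, and Mrpl20. Mrpl19, among the lowest in level, had 7.98 and 9.07 FPKM in GAP-2, 9.14 and 9.07 FPKM in GAP-2/3, and 6.86 and 6.78 FPKM in GAP-scr libraries. Its replicates were close in each group and the groups did not overlap.

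When each library was left out in turn, 5 of the 16 members stayed past the threshold in each of those fits: Mrpl39, Mrpl40, Mrpl42, Mrpl54 and Mrps18c. Mrpl40, Mrpl42, Mrpl54 and Mrps18c, 4 genes, also did so under every other alternative computed for the mean of both arms. The other members lost the call in at least 1 of the fits that left out a library.

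**Figure D2:**
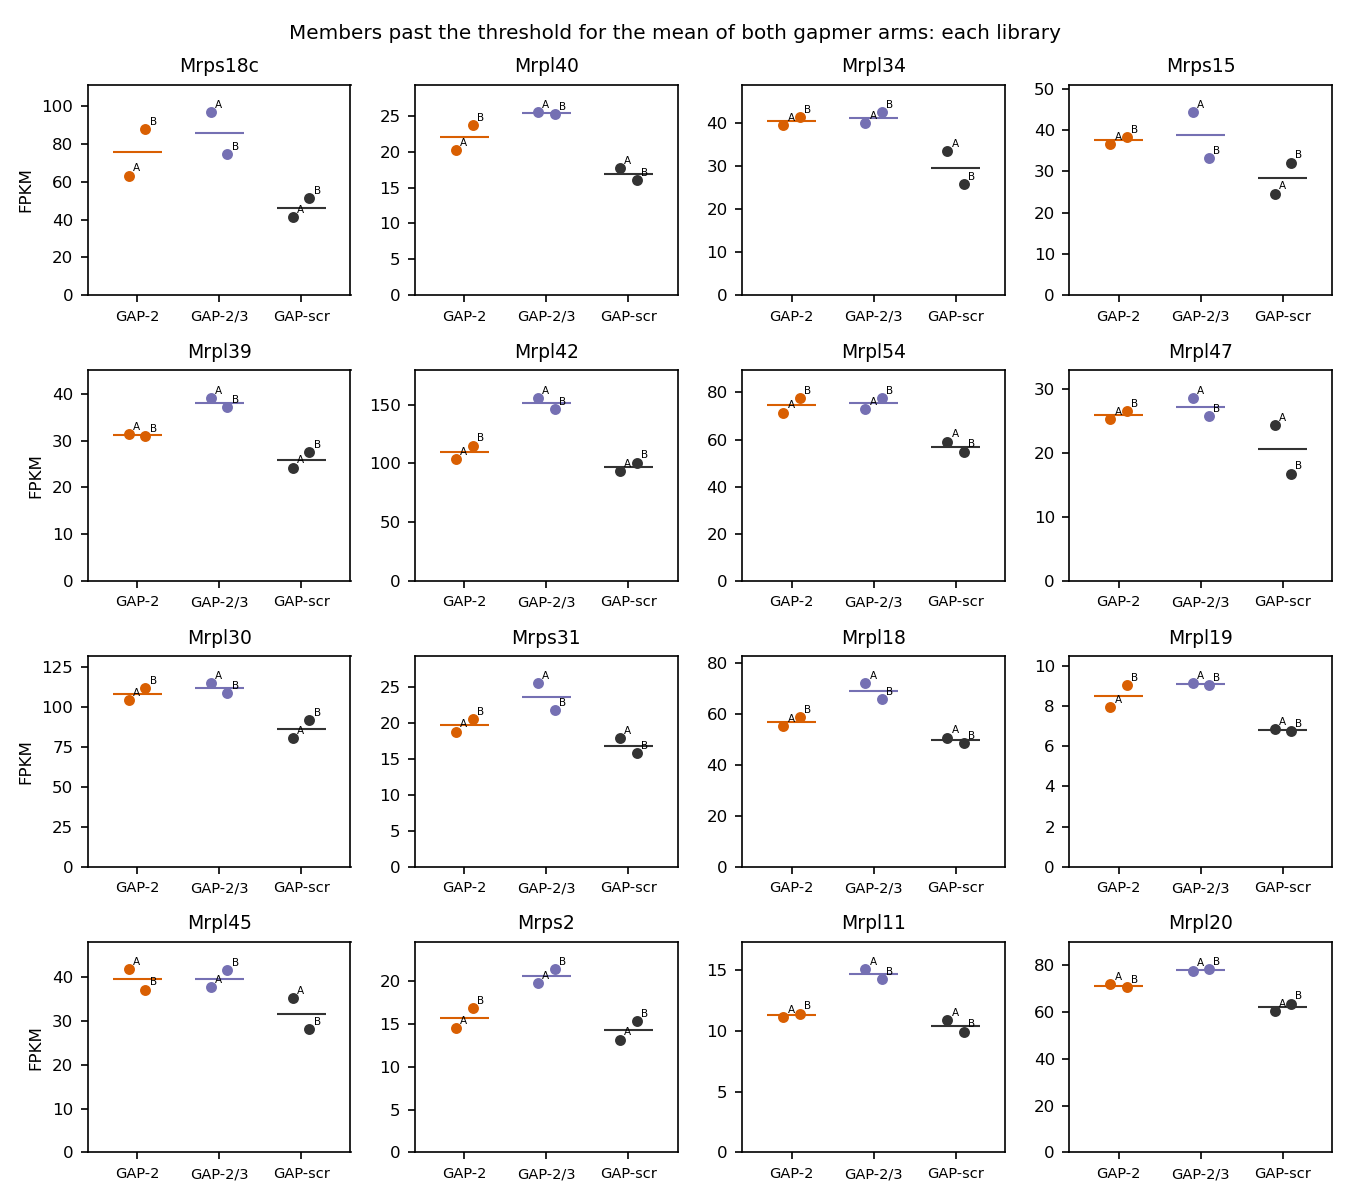
FPKM of the 16 members that rose in the mean of both arms, with GAP-2, GAP-2/3 and GAP-scr from left to right. Points are libraries A and B and lines are group means (n = 2). In Mrps18c the gapmer libraries sit between 63.2 and 96.9 FPKM and the controls at 41.2 and 51.2 FPKM.

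Taken singly, the arms gave different counts. In GAP-2 against GAP-scr 3 members rose, Mrps18c (0.69 ± 0.17, adjusted p = 0.0225), Mrpl34 (0.45 ± 0.13, adjusted p = 0.0391) and Mrpl54 (0.38 ± 0.11, adjusted p = 0.0355, limma), and 0 fell. These are 3.95% of the members, beside 10.4% of all genes called higher and 4.18% called lower. At an unadjusted p under 0.05, 13 members were higher and 2 lower, 15 of 76 in either direction beside 3492 of all 10993 genes. The count of 3 was 1 without GAP-2 A (4.08% of all genes higher), 0 without GAP-2 B, GAP-2/3 A or GAP-2/3 B (3.21 to 6.2%), and 8 without GAP-scr A, when 5 members also fell. Over all genes 17.1% were higher and 6.77% lower in the fit without GAP-scr A. With the libraries scaled to one median 0 members were called in GAP-2, and over all genes 706 were higher and 644 lower. In GAP-2/3 against GAP-scr 20 members rose and 0 fell, 26.32% of the members beside 28.0% of all genes called higher and 11.3% called lower. At an unadjusted p under 0.05, 27 were higher and 1 lower, 28 of 76 in either direction beside 5386 of all 10993 genes. The members' median log2 change was 0.09 for GAP-2 (0.07 over all genes) and 0.21 for GAP-2/3 (0.13 over all genes). The count in GAP-2/3 was 3 without GAP-2/3 A (10.3% of all genes higher), 10 without GAP-2/3 B (18.1%) and 9 after scaling to one median, when 2 members fell and 1922 of all genes were higher and 1788 lower.

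Of the 20 members called in GAP-2/3, 14 were large and 6 small subunit genes. Mrps18c (0.87 ± 0.17, adjusted p = 0.00283), Mrpl42 (0.63 ± 0.11, adjusted p = 0.00129), Mrpl40 (0.57 ± 0.12, adjusted p = 0.00385) and Mrpl39 (0.54 ± 0.11, adjusted p = 0.00328, limma) had the highest log2 changes. Mrps2 changed by 0.51 ± 0.12 (adjusted p = 0.00868) and Mrps31 by 0.47 ± 0.12 (adjusted p = 0.0121). Members called in GAP-2/3 and not in the mean of both arms were Mrps16, Mrps9, Mrpl52, Mrpl9, Mrpl22 and Mrpl33, with log2 changes of 0.31 to 0.39. Mrpl52 and Mrpl33, the most abundant members, are among them. Mrpl52 had 218 and 248 FPKM in GAP-2, 309.6 and 285 FPKM in GAP-2/3, and 228 and 236 FPKM in GAP-scr libraries, so GAP-2/3 lay above both controls and GAP-2 overlapped them. Mrpl33 had 233 and 265 FPKM in GAP-2, 328 and 299.2 FPKM in GAP-2/3, and 256 and 249.7 FPKM in GAP-scr libraries, with the same order. Mrpl39, Mrpl40 and Mrpl42 were the 3 whose call in GAP-2/3 held under every alternative.

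The difference between the arms was tested directly. In GAP-2/3 against GAP-2, 2 members were higher and 0 lower, beside 6.5% of all genes called higher and 3.65% called lower. At an unadjusted p under 0.05, 11 members were higher and 0 lower, 11 of 76 beside 2854 of all 10993 genes in either direction. Mrpl42 was higher by 0.46 ± 0.11 (adjusted p = 0.0206, limma). Mrpl22, whose bacterial homologue lines the exit tunnel, had 66.8 and 64.9 FPKM in GAP-2/3, 49.2 and 51.5 FPKM in GAP-2, and 51.9 and 53.5 FPKM in GAP-scr libraries. GAP-2 lay below the controls for this gene and GAP-2/3 above them. It was higher in GAP-2/3 than in GAP-2 by 0.38 ± 0.10 (adjusted p = 0.0365). Neither call held when any of the GAP-2 or GAP-2/3 libraries was left out, which gave a count of 0 each time. The count was 6 without GAP-scr A and 7 without GAP-scr B (12.0% and 12.1% of all genes higher), libraries that add only to the estimate of the spread here. After scaling to one median it was 0, with 455 of all genes higher and 420 lower.

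**Figure D3:**
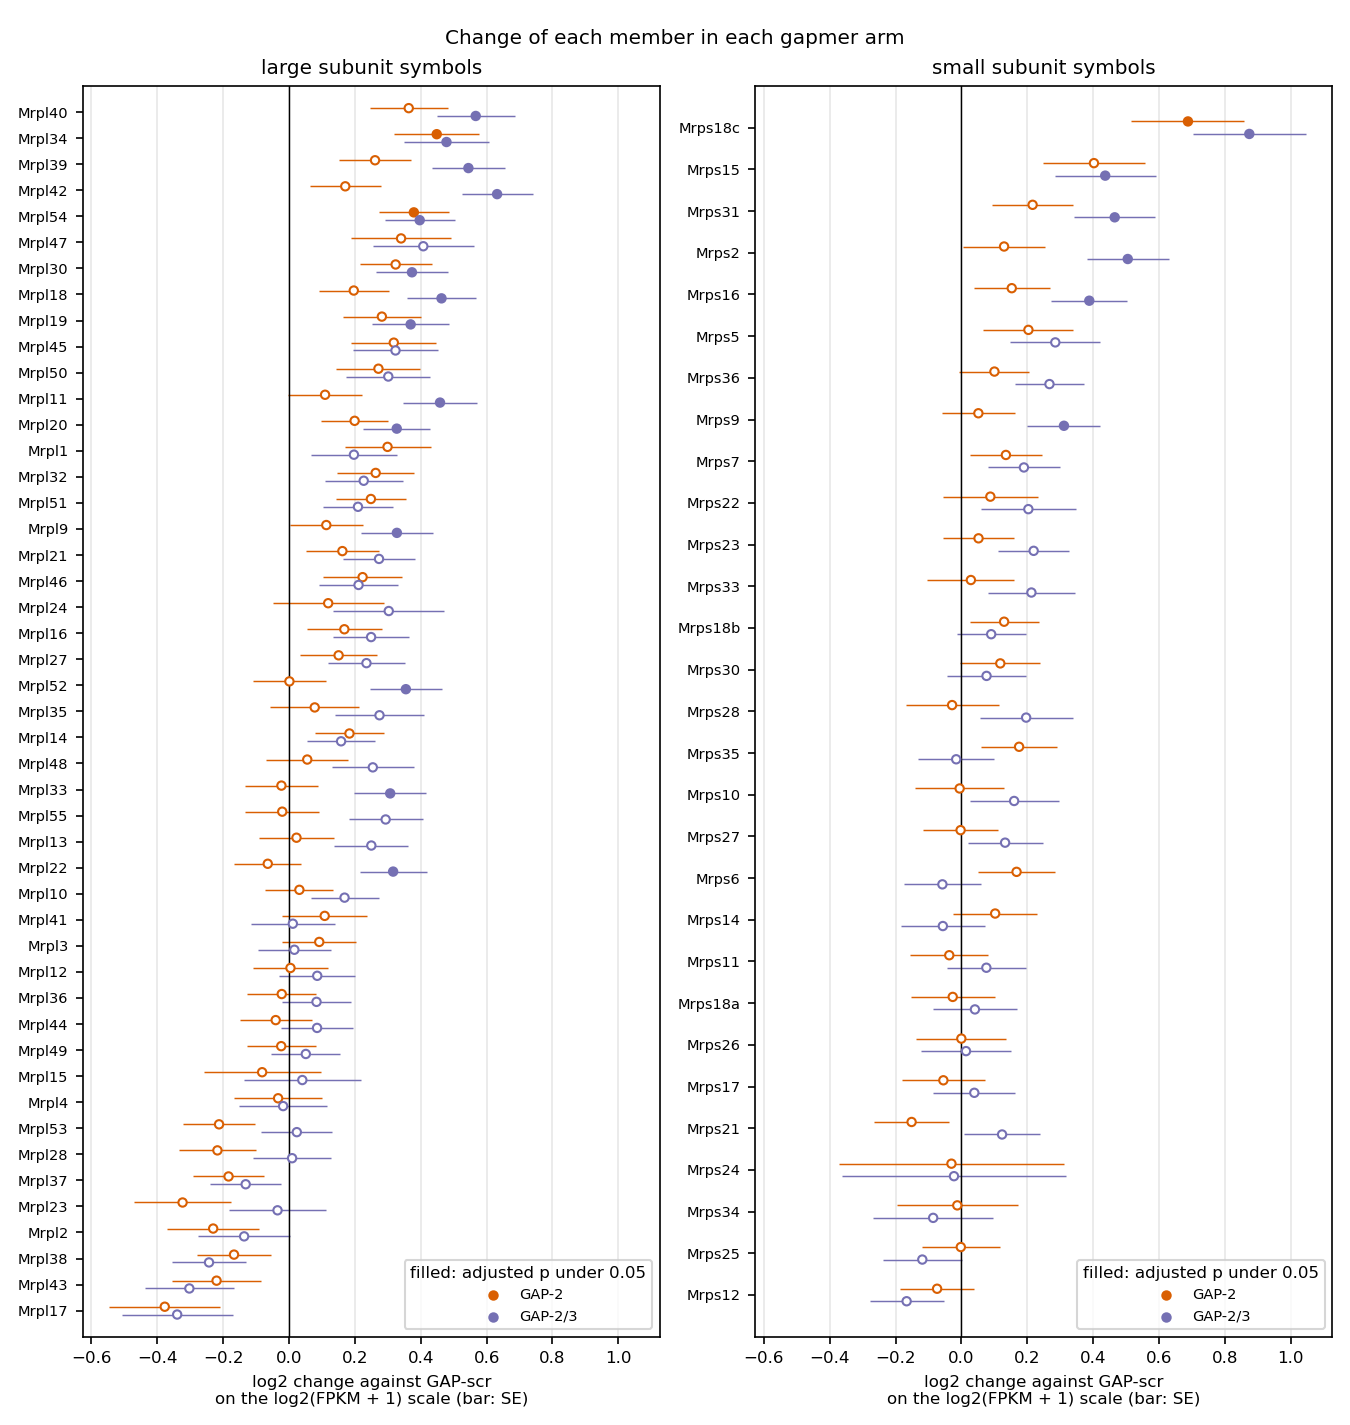
Log2 change (on the log2(FPKM + 1) scale) of every member against GAP-scr in GAP-2 and GAP-2/3, large subunit symbols on the left and small on the right, ordered by the mean of both arms. Bars are SE and filled points have an adjusted p under 0.05. Mrps18c lies at 0.69 for GAP-2 and 0.87 for GAP-2/3, and Mrpl17 at -0.38 and -0.34, not past the threshold.

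The subunits were set beside each other by counts and medians. In the mean of both arms 12 of 47 large subunit symbols (25.53%) and 4 of 29 small subunit symbols (13.79%) rose, beside 24.5% of all genes. The median log2 change was 0.18 for the large and 0.08 for the small subunit. These medians differ by 0.09, with no test. Taken arm by arm the difference came to 0.06 for GAP-2 and 0.12 for GAP-2/3, and without GAP-scr B it turned to -0.03 in the mean of both arms and to -0.02 in GAP-2. With Mrps30 and Mrps18a counted in the large subunit and Mrps36 left out, the difference was 0.09. Among large subunit genes, 7 of 29 with a bacterial homologue and 5 of 17 without one rose. Among small subunit genes these counts were 3 of 16 and 1 of 10. Mrps18b was placed among those 10, although it is a paralogue of bacterial S18. Mrpl55, Mrps18a, Mrps30 and Mrps36 were assigned to neither kind.

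**Figure D4:**
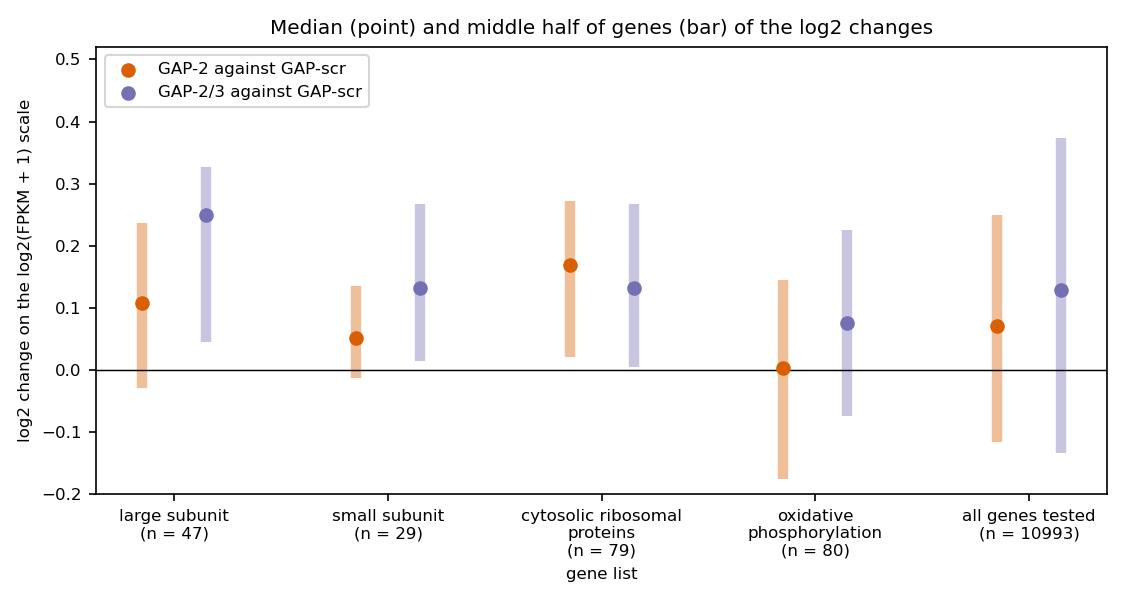
Median log2 change (points) and interquartile range of the genes (bars) against GAP-scr for large subunit symbols (n = 47), small subunit symbols (n = 29), cytosolic ribosomal proteins (n = 79), oxidative phosphorylation subunits (n = 80) and all genes tested (n = 10993), in GAP-2 and GAP-2/3. The bars of all lists overlap in each arm. In GAP-2/3 the large subunit has the highest median, 0.25, and all genes 0.13.

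In 28 members (36.8%) all 4 gapmer libraries lay above both GAP-scr libraries, beside 31.9% of all genes tested. These were 22 of 47 large and 6 of 29 small subunit symbols. In 3 members (3.95%) all gapmer libraries lay below both controls, beside 14.0% of all genes. Those 3 were Mrpl17, Mrpl37 and Mrpl43, and none passed the threshold. Mrpl17, a homologue of bacterial L17, had 7.10 and 6.68 FPKM in GAP-2, 6.92 and 7.28 FPKM in GAP-2/3, and 7.33 and 11.6 FPKM in GAP-scr libraries. One control library stood apart and the other was level with the gapmer libraries. The log2 change was -0.36 ± 0.15 (adjusted p = 0.0770, limma). Without GAP-scr A, 7 members were called lower in the mean of both arms (Mrpl15, Mrps24, Mrps34, Mrpl2, Mrpl43, Mrpl17 and Mrpl23), and without GAP-scr B 1 was, Mrpl38. Over all 10993 genes 1100 and 933 were called lower in those fits, so 7 of 76 is near the background.

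The controls were the least even pair. Between libraries B and A, 6 of 76 members (7.90%) differed by over 0.5 on the log2(FPKM + 1) scale in GAP-scr, beside 5.72% of all genes, while 0 did in GAP-2 and 1 in GAP-2/3. Mrps24, a homologue of bacterial S3, varied most. It had 41.0 and 50.2 FPKM in GAP-2, 62.1 and 33.5 FPKM in GAP-2/3, and 29.4 and 72.7 FPKM in GAP-scr libraries. All groups overlapped, since both control libraries lay outside the range of the GAP-2 pair, one on each side. The log2 change in the mean of both arms was -0.03 ± 0.30 (adjusted p = 0.956, limma). Mrps34, Mrpl15, Mrpl17 and Mrpl24 were also higher in GAP-scr B than in A, by 0.58 to 0.69, and Mrpl47 was lower by 0.52.

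**Figure D5:**
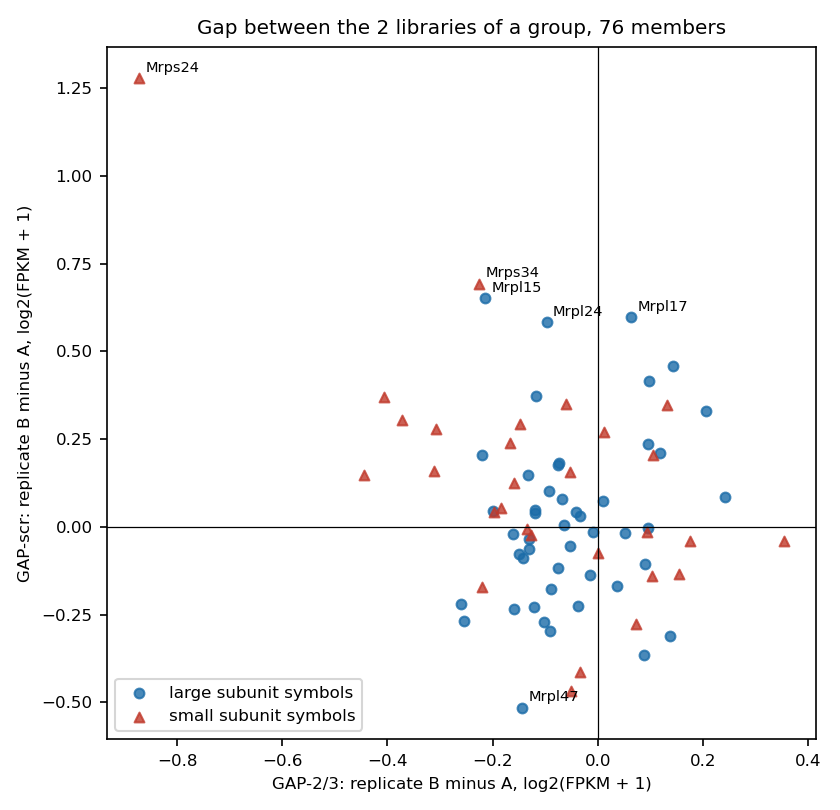
Library B minus library A on the log2(FPKM + 1) scale for the 76 members, GAP-2/3 on the horizontal and GAP-scr on the vertical axis. Circles are large and triangles small subunit symbols. Mrps24 stands apart, at -0.87 in GAP-2/3 and 1.28 in GAP-scr.

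Other genes of mitochondrial translation were counted beside the members. Of 7 mitoribosomal proteins with other symbols, Dap3 (a small subunit protein) alone rose in the mean of both arms, by 0.28 ± 0.10 (adjusted p = 0.0486, limma), and in GAP-2/3 Dap3, Chchd1 and Ict1 rose (3 of 7). Among 14 translation factors 1 rose in the mean of both arms, Guf1, the mitochondrial homologue of elongation factor 4. Guf1 had 8.04 and 8.0 FPKM in GAP-2, 8.77 and 7.05 FPKM in GAP-2/3, and 5.47 and 4.14 FPKM in GAP-scr libraries, a change of 0.63 ± 0.13 (adjusted p = 0.00358). In GAP-2/3 4 of 14 rose, Guf1, Mtif2, Mtrf1 and 2810006K23Rik. Of 25 genes for ribosome assembly and ribosomal RNA modification, 4 rose and 0 fell in the mean of both arms: Mterfd1 (0.48 ± 0.14), Fastkd2 (0.41 ± 0.10), Mterfd2 (0.37 ± 0.11) and Mrm1 (0.30 ± 0.10). In the mean of both arms these counts are 14.29%, 7.14% and 16% of their lists, beside 24.5% of all genes. In GAP-2/3 they are 42.86% (3 of 7), 28.57% (4 of 14) and 16% (4 of 25), beside 28.0%.

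Genes that act on mitochondrial transcription did not move one way. Of 14 tested 1 rose (7.14%) and 1 fell (7.14%) in the mean of both arms, beside 24.5% and 9.57% of all genes. Gabpa, the DNA-binding subunit of nuclear respiratory factor 2, rose by 0.30 ± 0.10 (adjusted p = 0.0399, limma). Polrmt, the mitochondrial RNA polymerase, fell by 0.49 on the log2 scale (adjusted p = 0.00805), with 15.8 and 13.5 FPKM in GAP-2, 12.0 and 15.2 FPKM in GAP-2/3, and 20.6 and 19.8 FPKM in GAP-scr libraries. Among the mitochondrial aminoacyl-tRNA synthetases, Vars2 fell by 0.37 on the log2 scale (adjusted p = 0.0394). Lars2, on the same list, had 154 and 15.6 FPKM in GAP-2, 10.6 and 9.79 FPKM in GAP-2/3, and 128 and 18.4 FPKM in GAP-scr libraries, high in the same libraries as Rn45s. The cytosolic ribosomal proteins had 13 of 79 higher (16.46%) and 1 lower (1.27%), with a median log2 change of 0.14. Both shares lay below those of all genes (24.5% and 9.57%), whose median was 0.10. By smallest p this list, drawn up by symbol, was led by Rpl7 (0.44), Rplp2 (-0.56), Rpl7l1 (0.37) and Rps25 (0.43). Rpl7l1 had 42.0 to 60.8 FPKM, against list medians of 1261 to 1426 FPKM in the libraries. Its symbol alone does not show that its protein is part of the ribosome. For oxidative phosphorylation 7 of 80 were higher (8.75%) and 6 lower (7.5%), also below the shares of all genes, with a median of 0.03. Cox6a2 (-0.63) and Cox8b (-0.52), subunit forms of striated muscle, and Uqcrc1 (-0.53) fell, and Ndufc2 (0.62) rose.

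The promoters of members were read from RefSeq (GRCm38.p6), which gave a window from 250 bases before to 50 bases after the start for 67 of the 76. Core motifs of 3 factors known from nuclear genes for mitochondrial proteins were searched on both strands, with overlapping matches counted: CCGGAAG, the core bound by ETS factors such as Gabpa, GCGCANGCG, the core of the nuclear respiratory factor NRF1, and AAGATGGCG, the core of YY1. The ETS core was found in 24 members (35.8%), beside 21.2% of the windows of genes tested and 9.93% of all windows. The NRF1 core was in 15 (22.4%, beside 16.3% and 7.03%), and the YY1 core in 8 (11.9%, beside 3.93% and 1.64%). Windows of cytosolic ribosomal protein genes held the ETS, NRF1 and YY1 cores in 40.7%, 13.6% and 6.78%. Those of oxidative phosphorylation genes held them in 24.2%, 31.8% and 10.6%. Among the 14 members with a window that rose in the mean of both arms, 3 held the ETS core (21.4%, beside 39.6% of the other members). The NRF1 core was in 3 (21.4%, beside 22.6% of the others) and the YY1 core in 1 (7.14%, beside 13.2%). In all, 7 of those 14 held at least 1 of the motifs, as did 40 of all 67 members (59.7%) and 36.0% of genes tested. A match describes these letters and is no evidence of binding.

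Parts of 5 of these 7 windows are printed as examples of each motif, chosen after their values were seen, 5′ to 3′ on the strand of the gene, with the motif in capitals. In Mrps18c (chr5:100798559-100798758, plus strand, the 200 bases before the start) the ETS core lies on the opposite strand. In Mrpl34 (chr8:71464806-71464925, plus strand, 120 bases) it lies on the strand of the gene. Mrpl39 (chr16:84735245-84735404, minus strand, 160 bases) holds 2 overlapping NRF1 matches, which form a palindrome, and Mrpl30 (chr1:37890327-37890476, plus strand, 150 bases) holds 2 separate ones. In Mrpl42 (chr10:95501900-95501929, minus strand, 30 bases from 21 to 50 after the start) the YY1 core lies downstream of the start. Mrpl18 (1 ETS match) and Mrpl45 (3 NRF1 matches) are the other two and are not printed.
Mrps18c: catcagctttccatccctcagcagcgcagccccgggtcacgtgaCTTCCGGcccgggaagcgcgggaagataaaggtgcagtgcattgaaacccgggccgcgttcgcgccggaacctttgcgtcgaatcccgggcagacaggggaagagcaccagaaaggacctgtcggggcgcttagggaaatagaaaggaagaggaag
Mrpl34: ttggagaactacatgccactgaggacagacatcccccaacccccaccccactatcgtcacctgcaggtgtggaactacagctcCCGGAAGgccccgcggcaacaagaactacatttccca
Mrpl39: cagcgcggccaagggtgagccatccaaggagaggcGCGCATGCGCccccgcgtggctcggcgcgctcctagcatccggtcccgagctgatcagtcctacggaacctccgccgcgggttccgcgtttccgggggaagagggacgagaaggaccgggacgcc
Mrpl30: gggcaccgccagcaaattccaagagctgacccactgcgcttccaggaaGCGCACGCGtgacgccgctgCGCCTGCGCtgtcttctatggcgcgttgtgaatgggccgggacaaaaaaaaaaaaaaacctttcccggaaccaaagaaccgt
Mrpl42: ttgaagcAAGATGGCGagcgcgcggtgagt

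Members lay on 17 chromosomes. The span of 24 members overlapped another RefSeq gene, and among the 16 that rose this was so for 3: Mrpl18 with Tcp1, Mrps2 with 1700007K13Rik and Mrpl19 with Gcfc2. No source used here states whether the authors' FPKM took the strand of reads into account, so reads of such pairs cannot be told apart. For 4 members (Mrpl23, Mrpl27, Mrpl48 and Mrps36) RefSeq names a pseudogene that could share reads with them, and none of the 4 was called.

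Of the 798 regions in the authors' list of Charme-bound sites, 1 lay in a member. It is a 158 bp region in Mrpl14 (chr17:45687396-45687553), with its centre 1125 bases from the gene's start. The list gives it a score of 4785.36, the authors' own value, which ranks 98 among the 798. The build was inferred as GRCm38 because 1 region on chromosome X lies beyond its end in mm9, the build that the submitters' processing notes name. Having 1 of 76 members under a peak (1.32%) compares with 1.79% of the genes tested that matched RefSeq, and with spans extended by 10 kb the shares were 1.32% and 2.56%. Mrpl14, a homologue of bacterial L14 at the subunit interface, had 87.5 and 95.6 FPKM in GAP-2, 91.5 and 88.2 FPKM in GAP-2/3, and 81.9 and 78.9 FPKM in GAP-scr libraries. All gapmer libraries lay above the controls, and the log2 change of 0.17 ± 0.09 did not pass the threshold (adjusted p = 0.157, limma). The Mrpl14 span also overlaps Tmem63b, which starts on the opposite strand.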

How the data were processed

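RNA-seq of 6 libraries was deposited by the authors as FPKM in 1 table. Per the submitters' processing notes, the tools were TopHat2 and Bowtie2, Cufflinks and Cuffdiff, Trimmomatic and cutadapt, FastQC, CASAVA, bedtools and MACS, and the build was mm9, with no role or version given. A stranded mRNA kit was used per the labels' protocols. Whole reads could not be recovered from these values, which leaves the depth unknown and allows no count model. Peaks were deposited by the authors as 1 merged list with a score each, and no values per pull-down were used.

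FPKM was taken as log2(FPKM + 1) for 10993 genes with a mean of at least 1, without further scaling. The 3 groups were fitted together in limma 3.58.1 (R 4.3.3), using its intensity trend without covariates, after the step was tested on simulated data. The simulated noise was independent between genes and libraries, so that check does not cover shifts of whole libraries. Benjamini-Hochberg adjustment covered every gene tested. Nothing in the labels says that libraries A and B came from separate cultures, although the series text calls them biological replicates. The p-values weigh differences between groups against the spread between libraries, which limma moderates over all genes. Without stated cultures, that spread may be technical. Letters A and B were not used for pairing: the B minus A differences of 2 groups correlated across genes at 0.36 for GAP-2 with GAP-scr, -0.18 for GAP-2 with GAP-2/3 and -0.13 for GAP-2/3 with GAP-scr.

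Large and small subunits, other lists, motifs and peaks are described by counts and medians beside those of all genes, with no test over a list. The members and the lists were chosen with earlier results of these data known. Genes named are, per contrast and subunit, up to 4 with the highest and 4 with the lowest log2 change among those called, the 3 highest and 3 lowest levels per subunit, members under a peak, symbols with a known exception, and up to 4 genes with the smallest p per other list; further members named were chosen after their values were seen. Alternatives were other pseudocounts, filters, scalings, thresholds, replicate blocks and libraries left out. Python 3.11.15 was used for tables and figures. For the aminoacyl-tRNA synthetases, 1 gene and the counts over the list are not reported here.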

Additional observations from a re-analysis of the deposited data

Results flagged for a closer look

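Mrpl42 and Mrpl22 were singled out because the effects of the arms differ by a direct test. For Mrpl42 the log2 change of GAP-2/3 minus that of GAP-2 was 0.461 (adjusted p = 0.0206, limma), from 0.63 for GAP-2/3 and 0.17 for GAP-2, and both GAP-2/3 libraries were above both GAP-2 libraries. For Mrpl22 the same difference was 0.381 (adjusted p = 0.0365), from 0.32 for GAP-2/3 and -0.06 for GAP-2, again without overlap between the arms. The arms share their controls. Without GAP-2 A the adjusted p was 0.289 for Mrpl42 and 0.374 for Mrpl22, the highest over their alternatives, and the lowest were 0.00567 and 0.0139.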

How the results depend on the processing

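In none of the alternatives did a called member change direction. In the mean of both arms 6 members were higher and 1 lower after scaling to one median, beside 14.7% and 14.1% of all genes. After quantile normalization 7 were higher and 1 lower, beside 14.3% and 15.4%. In GAP-2 these counts of higher members were 0 and 1, beside 6.42% and 6.29% of all genes. In GAP-2/3 they were 9 and 10, beside 17.5% and 16.6%, with 2 lower under each, beside 16.3% and 17.8%. In GAP-2/3 against GAP-2 the count was 0 after scaling, beside 4.14%. Leaving out each library gave 6 to 19 higher and 0 to 7 lower members for both arms, 0 to 8 and 0 to 5 for GAP-2, 3 to 21 and 0 to 3 for GAP-2/3, and 0 to 7 higher between the arms. Without the libraries highest in Rn45s, 4 members were lower for both arms, 2 for GAP-2 and 4 for GAP-2/3 (7.99%, 3.59% and 10.2% of all genes), and 0 were higher between the arms. With the libraries of the compared groups alone 0 were higher in GAP-2 and 7 between the arms, beside 6.14% and 12.2% of all genes. At a threshold of 0.1 there were 6 higher in GAP-2 and 6 between the arms, beside 16.2% and 10.5% of all genes. At that threshold 1 was lower for both arms and 1 for GAP-2/3, beside 12.6% and 14.3%. The cause was not tested.

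The samples share a letter and no stated origin. With the letters as a replicate block, 15 members were higher and 1 lower (Mrpl17) for both arms, beside 25.7% and 10.2% of all genes. Higher members numbered 4 in GAP-2, 20 in GAP-2/3 and 2 between the arms, beside 12.4%, 28.9% and 8.52%. With the pairing crossed, an alternative chosen after seeing the data, 17 were higher and 0 lower for both arms, beside 28.1% and 11.5%. The other counts of higher members were then 6, 23 and 3, beside 12.8%, 31.1% and 9.23%. The median log2 change of the members in the mean of both arms was 0.05 after scaling to one median, in place of 0.14. Depth is unknown, so low members such as Mrpl35 cannot be given a counting error.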

Other observations

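Neighbours that start close by on the opposite strand were counted after the values of the members were seen. Of the 67 members with a RefSeq window, 25 (37.3%) have another gene's start on the opposite strand within 1000 bases, beside 20.5% of genes tested and 12.3% of all genes with a window. Of the members that rose in the mean of both arms 5 are among them, and 4 of these 5 have a partner that rose as well. Mrpl30 pairs with Mitd1 (0.67 on the log2 scale, adjusted p = 0.00113, limma) and Mrps18c with Helq (0.38, adjusted p = 0.0164, mean 2.37 FPKM). Mrpl18 pairs with Tcp1 (0.28, adjusted p = 0.0449) and Mrpl47 with Ndufb5 (0.26, adjusted p = 0.0495), both just past the threshold. Hira, the partner of Mrpl40, changed by -0.10 and did not pass. Of the 16 tested partners of members that were not called, 2 rose (Ptcd2 and Zfp189) and 1 fell (Pnpla7). Over all genes tested 24.5% were called higher and 9.57% lower. Whether the genes of a pair change together was not tested. Mrpl46 and Mrps11, one of each subunit, start 42 bases apart and were both not called, with changes of 0.22 and 0.02. The Tcp1 span overlaps Mrpl18, and reads of that pair cannot be told apart without strand.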
